A study of Mus musculus with 13 samples.

Results

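The genes described here encode the 5 intermediate filament proteins of neurons: the light, medium and heavy neurofilament subunits (Nefl, Nefm and Nefh), alpha-internexin (Ina) and peripherin (Prph). They were chosen by name, and each matched 1 gene of the 48795 in the table of estimated counts. Neurofilaments are heteropolymers that fill the axon and set its calibre. The light subunit is required for assembly, the medium and heavy subunits carry long phosphorylated tails, and alpha-internexin joins them in central axons and is made early in neuronal differentiation. Peripherin is mainly a protein of peripheral neurons and of central neurons whose axons leave the brain, so that a hemisphere is expected to hold little of its mRNA.

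Brain RNA of 13 mice on a C57BL/6J background was sequenced at postnatal day 11, each library from 1 right hemisphere that had been freed of olfactory bulb and cerebellum. The 5 control mice (genotype NexCre -/- YAP5SAnls +/-) carried 1 copy of the silent transgene and no Cre. The 5 nlsYAP5SA mice (NexCre +/- YAP5SAnls +/-) carried the same transgene and 1 Cre allele. The 3 C57BL/6 mice were wild type and were not littermates of the others. The transgene encodes a nuclear form of YAP1 that its inhibitory kinases cannot phosphorylate, behind a stop cassette that Cre removes. Cre was driven from the Neurod6 (NEX) locus, which is active in the lineage of pyramidal neurons of cortex and hippocampus, and the nlsYAP5SA animals grow ependymoma-like tumours. An nlsYAP5SA hemisphere can therefore hold tumour cells, neurons in which the transgene was switched on and neurons that never expressed Cre.

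Total estimated counts ran from 21380744 to 25524349 in control, from 20871566 to 23586887 in nlsYAP5SA and from 21541836 to 24392197 in C57BL/6 libraries. No 2 libraries of a group agreed within sampling noise. Yap1 mRNA, to which reads of the transgene may or may not have been assigned, stood between 19.96 and 22.34 CPM (counts scaled to a common library size) in controls and between 22.62 and 26.6 CPM in nlsYAP5SA hemispheres, a log2 fold change of 0.23 (SE 0.06; adjusted p = 0.0361, edgeR quasi-likelihood test, Benjamini-Hochberg adjusted across every gene tested). This call held in 9 of 21 alternative analyses. The hemispheres expressed all 15 genes of a pan-neuronal list, while 4 of 11 hindbrain genes (Hoxa2, Hoxa3, Hoxb3 and Hoxc4) had no count in any library, and the others had counts in at least 1, such as Tph2 at 1.79 CPM in controls.

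On the mouse genome (GRCm38, GENCODE M21), the light and medium subunit genes are neighbours on chromosome 14. Nefl (ENSMUSG00000022055) lies at chr14:68083863-68089095 on the plus strand, and Nefm (ENSMUSG00000022054) at chr14:68082590-68124846 on the minus strand. One of the 2 annotated Nefm transcripts extends across Nefl, so that 1108 exonic bases of the pair are antisense to each other. Nefh (ENSMUSG00000020396) is at chr11:4938754-4948064 on the minus strand, Ina (ENSMUSG00000034336) at chr19:47014698-47025327 on the plus strand and Prph (ENSMUSG00000023484) at chr15:99055174-99058978 on the plus strand. Ina and the gene Nt5c2 on the other strand overlap over 456 exonic bases. Estimated counts of Nefl, Nefm and Ina were not whole numbers in any of the 13 libraries, as arises when reads are shared among overlapping transcripts, whereas those of Nefh and Prph were whole in all 13. Whether strand was used in counting is not given in the sources used here, so reads from the overlapping exons cannot be assigned with certainty.

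Promoter sequence was taken from RefSeq (GRCm38.p6) for the 2 genes it was given for, Ina and Prph. They are shown so that the pair can be compared, and no result below rests on them. Each run covers 250 bases before and 50 bases after the start of transcription on the plus strand, at chr19:47014431-47014730 for Ina and chr15:99054924-99055223 for Prph. Capitals mark GGAATG, the core that TEAD factors (the DNA-binding partners of YAP1) recognise, on either strand, and TATAAA, the TATA box.
Ina: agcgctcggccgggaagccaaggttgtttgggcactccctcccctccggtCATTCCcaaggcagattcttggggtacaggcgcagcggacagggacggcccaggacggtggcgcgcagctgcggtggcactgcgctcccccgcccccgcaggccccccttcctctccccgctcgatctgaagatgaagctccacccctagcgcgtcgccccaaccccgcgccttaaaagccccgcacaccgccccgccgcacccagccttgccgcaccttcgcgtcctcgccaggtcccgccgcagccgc
Prph: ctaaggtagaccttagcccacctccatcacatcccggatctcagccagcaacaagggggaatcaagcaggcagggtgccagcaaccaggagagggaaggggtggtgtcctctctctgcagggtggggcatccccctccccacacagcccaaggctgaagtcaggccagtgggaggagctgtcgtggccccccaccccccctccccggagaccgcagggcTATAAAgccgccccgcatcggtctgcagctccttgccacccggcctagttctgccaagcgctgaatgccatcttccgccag
The Ina promoter was 71.7% G and C, with 32 CpG dinucleotides, no TATAAA, 1 GGAATG (on the minus strand) and 2 GGGCGG, the core recognised by SP1. The Prph promoter was 64.7% G and C, with 10 CpG dinucleotides, 1 TATAAA, no GGAATG and 1 GGGCGG. Of 32851 promoters of the same length, 13.6% held TATAAA, 14.7% GGAATG and 35.7% GGGCGG on either strand, with a median of 52.7% G and C and 7 CpG dinucleotides. None of the 3 motifs contains another, and a match is only a description of the sequence.

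In the brains of nlsYAP5SA mice the 3 neurofilament subunit mRNAs fell together, the medium and heavy subunits to 61.5% and 62.1% of control and the light subunit to 73.3%. Ina, which encodes their partner in central axons, fell far less, to 86.7% of control, and Prph did not pass the test. In the comparison with controls, 4 of the 5 genes were called lower, where 3.44% of the 16315 genes tested were called lower and 7.36% higher. The 561 lower calls behind the first share became 351, 340 and 296 without nlsYAP5SA 1, 2 or 5 and 315 without control 4. They became 1090 and 1004 with the GC and length offsets, 856 with DESeq2, 1278 with the myelin covariate described below, 303 under the replicate block and 66 with Y-linked genes as a covariate. In bulk tissue, fewer cells of a type and less RNA per cell cannot be told apart.

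Nefl, which forms the core of the filament, was the most abundant of the 5 transcripts. It stood at 463.3, 449.0, 496.5, 507.3 and 488.3 CPM in the 5 control hemispheres, at 343.9, 369.7, 368.9, 321.5 and 360.3 CPM in the 5 nlsYAP5SA hemispheres and at 505.5, 528.7 and 498.9 CPM in the 3 C57BL/6 hemispheres. The highest nlsYAP5SA value lay well below the lowest control. The log2 fold change against control was -0.45 (SE 0.06; adjusted p = 0.000213, edgeR).

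Nefm, whose long tail extends between filaments, was at 290.3, 251.6, 327.9, 358.8 and 320.3 CPM in controls. In nlsYAP5SA it was at 188.5, 201.4, 191.7, 171.0 and 201.2 CPM, and in C57BL/6 at 332.6, 394.2 and 308.9 CPM. Control 2 was the lowest of the mice without Cre, and still stood above every nlsYAP5SA hemisphere. The log2 fold change was -0.70 (SE 0.09; adjusted p = 0.000205, edgeR).

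Nefh, the largest subunit, accumulates last as axons mature. It was measured at 82.53, 72.88, 96.13, 99.37 and 95.04 CPM in controls, at 48.41, 58.9, 56.82, 49.79 and 63.0 CPM in nlsYAP5SA and at 91.51, 115.4 and 96.53 CPM in C57BL/6. The groups with and without Cre did not overlap, and controls 1 and 2 were again the lowest of the controls. The log2 fold change was -0.69 (SE 0.10; adjusted p = 0.00049, edgeR). Ordered by p among genes with a negative fold change, Nefm ranked 9, Nefl 10 and Nefh 18. All 3 calls held in 21 of 21 alternative analyses.

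Ina was at 222.3, 200.2, 199.8, 216.1 and 202.7 CPM in controls, at 189.2, 171.8, 185.0, 177.8 and 180.9 CPM in nlsYAP5SA and at 223.3, 212.2 and 205.3 CPM in C57BL/6. The groups did not overlap here either, but the gap between the lowest control and the highest nlsYAP5SA hemisphere was narrow. The log2 fold change was -0.21 (SE 0.05; adjusted p = 0.0221, edgeR), the gene ranked 304 by p among those with a negative fold change, and the call held in 15 of 21 alternative analyses. It was lost, among others, without control 4, nlsYAP5SA 2 or nlsYAP5SA 5 (adjusted p = 0.0677, 0.0643 and 0.0571, edgeR), at log2 fold changes between -0.22 and -0.18 without any 1 library. Each of the 5 nlsYAP5SA hemispheres was below each of the 5 controls in 4 of the 5 genes, a pattern that 3.57% of all genes tested showed.

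Prph was scarce, at 5.071, 5.245, 2.71, 3.778 and 3.684 CPM in controls, at 4.068, 3.767, 2.687, 3.565 and 4.028 CPM in nlsYAP5SA and at 3.094, 4.313 and 3.997 CPM in C57BL/6. The groups overlapped throughout, and the coefficient of variation among controls was 25.8%, against 5.01% for Nefl. The log2 fold change was -0.19 (SE 0.18; adjusted p = 0.588, edgeR), with a 95% interval from -0.55 to 0.18. A library held 62 to 134 reads of it, and a fall of the size of that of Nefl lies inside this interval.

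**Figure D1:**
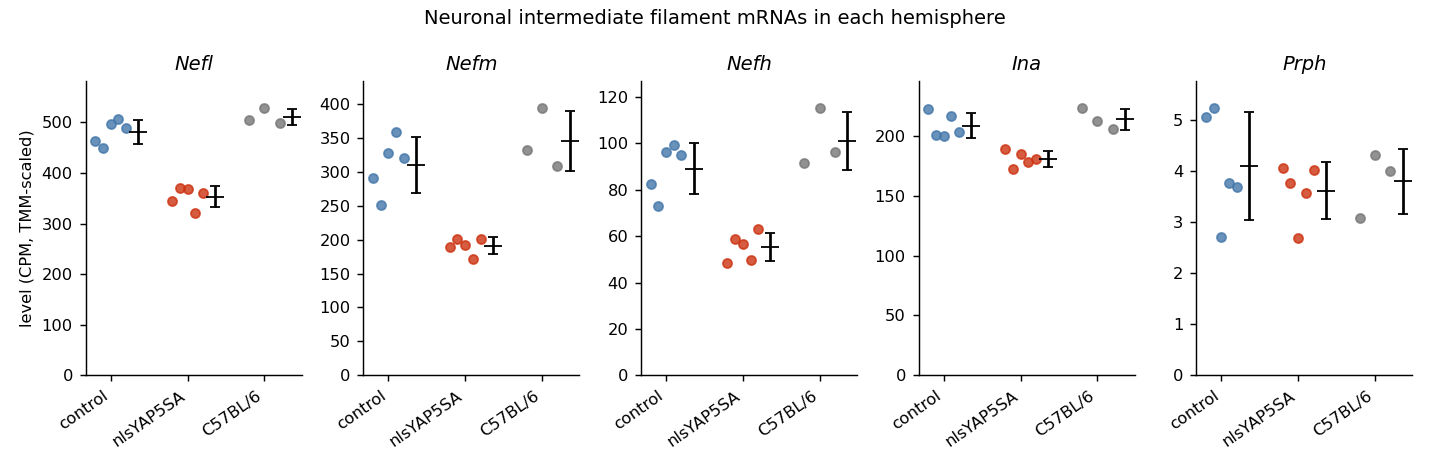
Level of each neuronal intermediate filament mRNA (vertical axes, CPM scaled by TMM, starting at 0) in the 5 control, 5 nlsYAP5SA and 3 C57BL/6 hemispheres, 1 point per mouse, with the group mean and SD in black. For Nefl, Nefm, Nefh and Ina every nlsYAP5SA point is below every control and C57BL/6 point, and for Prph the groups overlap.

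Per kilobase of transcript, the order of the mean levels in controls was Nefl (142 ± 7.13 CPM per kb, SD, n = 5), Nefm (84.2 ± 11.1), Ina (64.3 ± 3.18), Nefh (22.3 ± 2.79) and Prph (2.2 ± 0.567). In C57BL/6 the order was the same, from 151 ± 4.62 CPM per kb for Nefl to 2.04 ± 0.340 for Prph (SD, n = 3). In nlsYAP5SA the levels per kilobase were 104 ± 6.02 for Nefl, 51.8 ± 3.38 for Nefm, 55.9 ± 2.06 for Ina, 13.9 ± 1.55 for Nefh and 1.95 ± 0.302 for Prph (SD, n = 5). The means of Nefm and Ina thus lay closer together in nlsYAP5SA than in controls, and which of them was higher depended on the transcript length used. With the shorter Nefm transcript of 3334 bases, Nefm stood at 57.2 ± 3.73 CPM per kb in nlsYAP5SA and at 92.9 ± 12.2 in controls.

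The C57BL/6 mice carry neither transgene nor Cre and were not littermates of the controls. They differ from controls in transgene and litter at once, so the comparison cannot tell these apart. In this comparison, none of the 5 genes was called by edgeR, and 28 of 16546 genes, or 0.169%, were. At an unadjusted p under 0.05 none of the 5 passed either, and none was called by DESeq2. The log2 fold changes of C57BL/6 against control were 0.09 for Nefl (95% interval -0.04 to 0.21), 0.16 for Nefm (-0.08 to 0.39), 0.18 for Nefh (-0.05 to 0.41), 0.04 for Ina (-0.09 to 0.17) and -0.11 for Prph (-0.55 to 0.32). The means of the 3 neurofilament subunits were somewhat higher in C57BL/6, with overlap between the groups. With 3 C57BL/6 mice, the intervals reach 0.39 for Nefm and 0.41 for Nefh, so the lack of a call is no evidence of equal levels.

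Against C57BL/6, 4 of the 5 genes were again called lower in nlsYAP5SA, where 2.22% of 16641 genes were. The log2 fold changes were -0.55 for Nefl (SE 0.07; adjusted p = 0.0016, edgeR), -0.87 for Nefm (SE 0.09; adjusted p = 0.00066), -0.88 for Nefh (SE 0.11; adjusted p = 0.00152) and -0.25 for Ina (SE 0.06; adjusted p = 0.0382). Prph gave -0.09 (SE 0.18; adjusted p = 0.823, edgeR). The nlsYAP5SA hemispheres are the same as in the first comparison, so the 2 sets of values are not independent. The Ina call held in 5 of 15 alternatives. The Nefl, Nefm and Nefh calls held in 14 of 15 and were lost with the replicate number as a block (adjusted p = 0.115, 0.0648 and 0.0567, edgeR). The 369 lower calls behind 2.22% ran from 99 without C57BL/6 replicate 1 to 770 without C57BL/6 replicate 3, and were 2 under the replicate block.

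**Figure D2:**
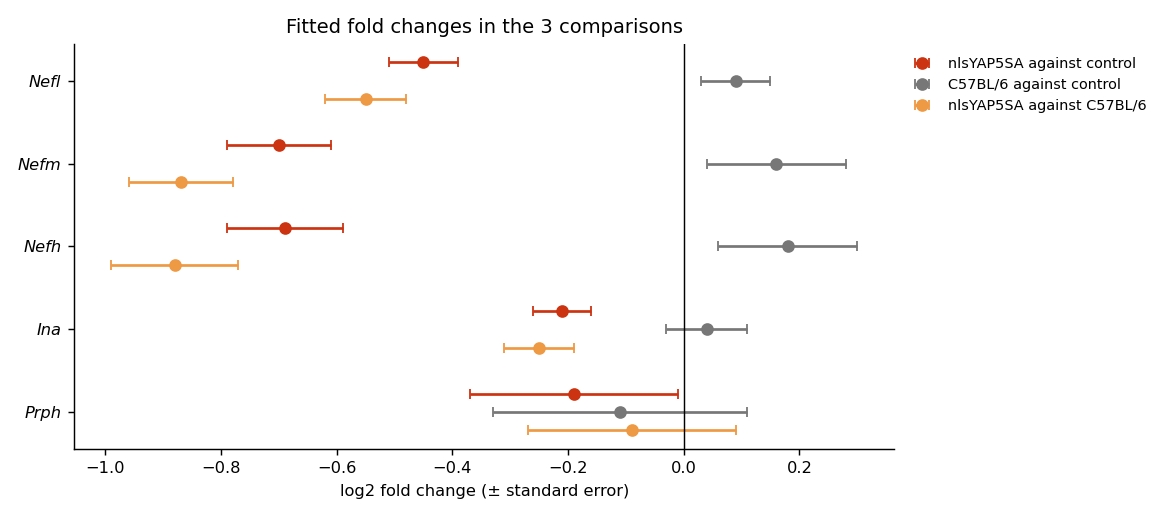
Fitted log2 fold changes of the 5 genes (horizontal axis, with bars of 1 standard error) for nlsYAP5SA mice set against control (red) or C57BL/6 mice (orange), and for C57BL/6 set against control mice (grey). Nefm and Nefh lie near -0.70 against control, Nefl at -0.45 and Ina at -0.21, while the C57BL/6 mice lie within 0.18 of control for these 4 genes.

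Because the subunits assemble with one another, the ratio of their mRNAs within a library was compared next, which needs no scaling between libraries. The ratio of Nefm to Nefl counts was 0.627, 0.56, 0.66, 0.707 and 0.656 in controls and 0.548, 0.545, 0.52, 0.532 and 0.558 in nlsYAP5SA. Every nlsYAP5SA ratio was lower than every control ratio, although the nearest pair differed by little. The log2 ratio differed by -0.24 (2-sided exact permutation test over 252 arrangements, p = 0.00794, the smallest this design allows; adjusted p = 0.0159 over 6 pairs). In C57BL/6 the mean ratio was 0.674 ± 0.0648 (SD, n = 3).

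Nefh also lost ground to Nefl, from a ratio of 0.185 ± 0.0146 in controls to 0.157 ± 0.0122 in nlsYAP5SA (SD, n = 5 each; log2 difference -0.24, exact permutation adjusted p = 0.019), with some overlap of the groups. The ratio of Nefh to Nefm was 0.288 in controls, 0.290 in nlsYAP5SA and 0.293 in C57BL/6 hemispheres (log2 difference 0.01, exact permutation p = 0.905). The medium and heavy subunits were therefore measured in nearly the same proportion in all 3 groups, while both were lower relative to the light subunit.

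Relative to Ina, each neurofilament subunit was lower in nlsYAP5SA. The ratio of Nefm to Ina was 1.31, 1.26, 1.64, 1.66 and 1.58 in controls and 0.996, 1.17, 1.04, 0.962 and 1.11 in nlsYAP5SA, with no overlap (log2 difference -0.49, exact permutation adjusted p = 0.0159). The ratio of Nefh to Ina moved by -0.48 on the log2 scale (exact permutation adjusted p = 0.0159, no overlap), and that of Nefl to Ina by -0.25 (exact permutation adjusted p = 0.019, with overlap). The difference in size between Ina and the 3 subunits, read from the fits above, was thus present within libraries.

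**Figure D3:**
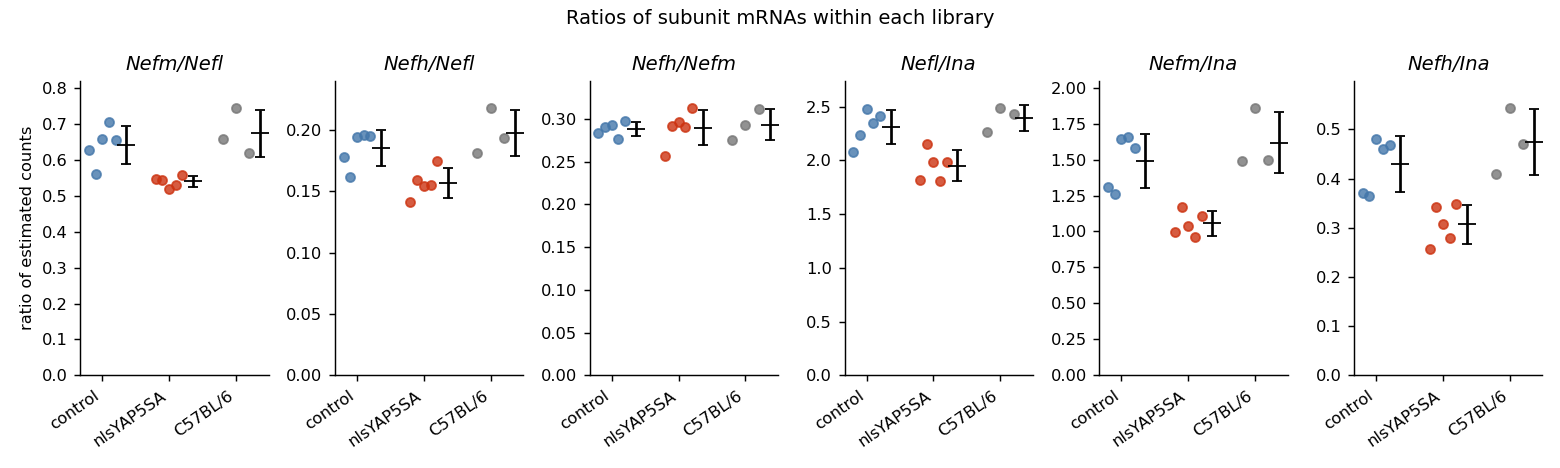
Ratio of the estimated counts of 2 subunit mRNAs within each library (vertical axes, starting at 0), 1 point per mouse in the 5 control, 5 nlsYAP5SA and 3 C57BL/6 hemispheres, with group mean and SD in black. Nefm/Nefl, Nefm/Ina and Nefh/Ina separate the nlsYAP5SA from the control hemispheres, and Nefh/Nefm stands near 0.29 in all groups.

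To set the genes beside other neuronal mRNAs of the same library, each was expressed relative to the mean log2 CPM of the 15 pan-neuronal genes (synaptic, cytoskeletal and metabolic genes that most neurons express). Of these 15 genes 1, Thy1 (a surface protein of projection neurons), was called lower at -0.21 (adjusted p = 0.0495, edgeR), none was called higher, where 3.44% of all genes were called lower, and the median was -0.09 where that of all genes tested was -0.005. Relative to this mean, Nefl ranged from -0.33 to -0.22 in controls and from -0.68 to -0.53 in nlsYAP5SA on the log2 scale, a difference of -0.35. Nefm differed by -0.59 and Nefh by -0.58, and none of the 3 genes overlapped between the groups (2-sided exact permutation p = 0.00794 for each, the smallest possible). The falls of the neurofilament subunits were thus larger than that of the pan-neuronal list. Ina differed by -0.10 with overlap (exact permutation p = 0.0476), a value that passed in only 2 of 13 alternatives. Prph differed by -0.04 (exact permutation p = 0.841).

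Genes with which neurofilaments work were read against the same shares of all genes, 3.44% called lower and 7.36% higher. Among 11 kinases and phosphatases of the subunit tails, 1 was called lower, Cdk5r2 (a Cdk5 activator, -0.29, adjusted p = 0.0132, edgeR), none higher, and the list median was -0.05. None of the 3 cytolinkers that tie filaments to other polymers was called, with Plec (plectin) at 0.08. Of 8 transport motor subunits 1 was called lower, the kinesin light chain Klc2 (-0.18, adjusted p = 0.0261, edgeR), while Kif5a, the kinesin heavy chain best known for neurofilament transport, was at -0.21 (adjusted p = 0.0849, edgeR).

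Of 8 genes for turnover of the proteins or binding of their mRNAs, 2 were called higher and none lower. Capn2, a calpain that cleaves neurofilaments, rose by 0.26 on the log2 scale (adjusted p = 0.00367, edgeR). Arhgef28, which binds the mRNA of the light subunit, rose by 0.44 (adjusted p = 0.00981, edgeR). Among 19 genes of the axonal microtubule and membrane skeleton (tubulins, microtubule-associated proteins and spectrins), none was called, and the median was -0.11. Tuba1a, the most abundant of them, was at 3420 CPM in controls and 3230 CPM in nlsYAP5SA, and Map1a was at -0.23 (adjusted p = 0.230, edgeR). Relative to the mean log2 CPM of this list in the same library, Nefl differed by -0.34, Nefm by -0.58 and Nefh by -0.57 between nlsYAP5SA and control (2-sided exact permutation p = 0.00794 for each, the smallest possible), and Ina by -0.09 (exact permutation p = 0.111).

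The other intermediate filament genes on the list were those of glia, neural progenitors (Nes, nestin), epithelia, muscle (Des) and the nuclear lamina. Nes was not called, at -0.23 (adjusted p = 0.405, edgeR). Of these 12 genes 6, all of glia and epithelia, were called higher and none lower, where 7.36% of all genes were called higher, and the median was 0.70. Gfap (the astrocyte and tumour filament) was at 181 CPM in controls and 754 CPM in nlsYAP5SA, a log2 fold change of 2.06 (adjusted p = 1.34e-08, edgeR). Vim (vimentin) rose by 1.34 and the epithelial keratins Krt7, Krt8, Krt18 and Krt19 by 4.50, 2.31, 2.88 and 1.96 on the log2 scale. The keratins rose from only 0.110, 0.142, 0.442 and 0.598 CPM in controls. Against C57BL/6, Krt7, Krt18 and Krt19 were again called higher, and Krt8 was not (1.16, adjusted p = 0.316, edgeR). In summed CPM, the 12 genes went from between 367 and 391 in controls to between 883 and 1140 in nlsYAP5SA, and the 5 neuronal genes from between 979 and 1190 to between 724 and 809. The study labels the neurofilament subunits, Gfap and Vim in a plot of these same mice, so their directions here are not independent evidence.

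Neurons of different kinds hold very different amounts of neurofilament, and their marker genes were measured in the same libraries. Of 14 genes of fast-spiking and large-axon neurons, 4 were called lower and none higher, with a median of -0.27, where 3.44% of all genes tested were called lower. Among them were Kcng4 (a potassium channel subunit, -1.24, adjusted p = 0.000532, edgeR), Cplx1 (a regulator of transmitter release, -0.24, adjusted p = 0.00981) and Pvalb (parvalbumin, -0.60, adjusted p = 0.0356). Of 10 cortical pyramidal genes, 2 were called lower, and the list median was -0.14. They were Neurod6 at -0.98 (adjusted p = 2.65e-05, edgeR) and Cux2, an upper-layer factor, at -0.26 (adjusted p = 0.0126, edgeR). Neurod6 is the locus that carries the Cre insertion, in nlsYAP5SA mice only. Its fall as a pyramidal marker and an effect of the insertion therefore cannot be told apart. Of 7 hippocampal genes Fibcd1 was called lower (-0.78) and Dsp higher (0.56), where 7.36% of all genes tested were called higher. The median of this list was 0.23, with 4 of the 7 fold changes positive.

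None of 9 immature neuron genes, 7 striatal, 8 interneuron, 7 thalamic and 5 cholinergic or histaminergic genes tested was called, with list medians of -0.02, -0.08, -0.01, -0.09 and 0.03. The 6 midbrain genes tested, none of them called, had a median of -0.55 and summed to between 24.6 and 33.0 CPM in controls and between 9.09 and 26.4 CPM in nlsYAP5SA. Of the 11 hindbrain genes 2 passed the filter on low counts, and the list summed to between 2.44 and 8.34 CPM in controls and between 1.70 and 2.69 CPM in nlsYAP5SA. Of 3 cerebellar genes tested none was called, and of 4 peripheral neuron and Schwann cell genes 1 was, Prx (periaxin), which was higher by 0.78, where 7.36% of all genes were called higher. The midbrain and hindbrain sums overlapped between the groups, with lower minima and maxima in nlsYAP5SA, and their part in the fall of the neurofilament genes was not tested.

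**Figure D4:**
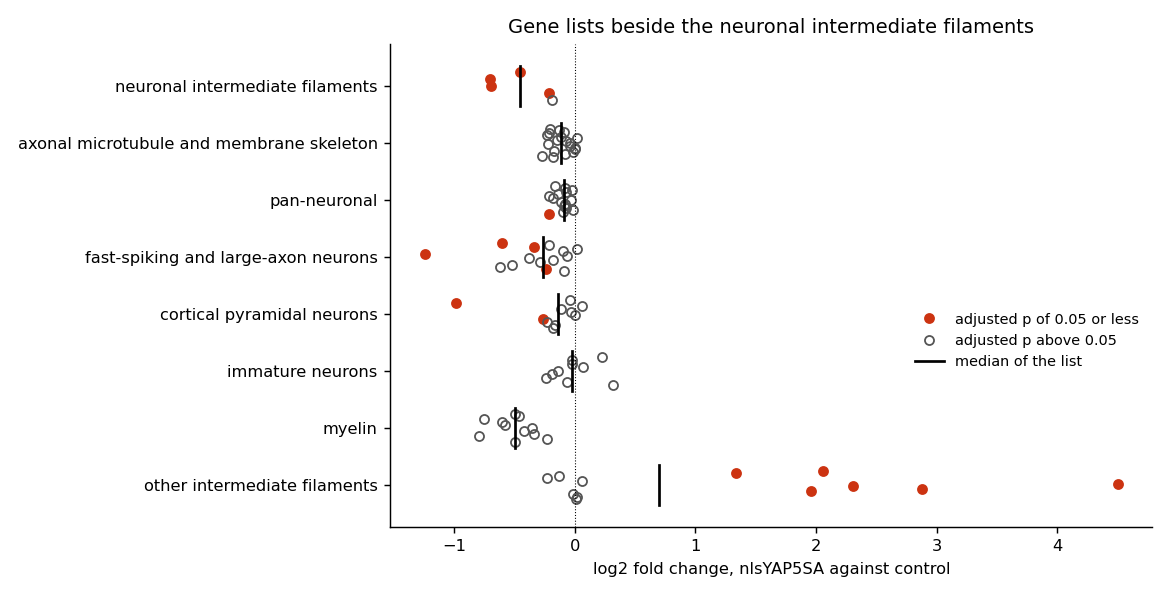
Log2 fold change of each tested gene of 8 lists, nlsYAP5SA against control (horizontal axis), with genes at an adjusted p of 0.05 or less filled and list medians as black bars. Nefl, Nefm and Nefh lie to the left of the axonal skeleton (median -0.11) and pan-neuronal genes (median -0.09). Ina and Prph lie within the range of the axonal skeleton genes. The myelin genes lie left of 0 without a call, and 6 of the other intermediate filament genes lie far to the right.

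Markers of glia and vessels were measured beside them, and their part in the fall of the neurofilament genes was not tested. Of 7 microglial genes 6 were called higher (median 0.68), of 7 astrocyte genes 4 (median 0.31) and of 7 choroid plexus genes 1, Folr1, where 7.36% of all genes were called higher. Of 4 endothelial genes 2 were called lower, Cldn5 at -0.44 and Cdh5 at -0.45, where 3.44% of all genes were. Choroid plexus genes summed to between 13.2 and 237 CPM in controls and between 15.7 and 312 CPM in nlsYAP5SA, a wide range in both groups.

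Myelin, which axons acquire as they thicken, was measured through 11 genes whose levels followed the neurofilament subunits from mouse to mouse. None of the 11 myelin genes was called against control, all 11 fold changes were negative, and the median was -0.49. Against C57BL/6, 3 of the 11 were called lower in nlsYAP5SA, where 2.22% of all genes were, with a median of -0.88: Mag (-1.02, adjusted p = 0.0212, edgeR), Mog (-1.20, adjusted p = 0.0434) and Cldn11 (-0.76, adjusted p = 0.0488). Under the replicate block 2 genes of the whole table were called lower in that comparison, so these 3 calls could not all be kept. Mag, the myelin-associated glycoprotein, was at 88.3, 73.4, 134, 138 and 122 CPM in controls, at 61.2, 98.8, 78.7, 48.1 and 79.3 CPM in nlsYAP5SA and at 123, 182 and 134 CPM in C57BL/6. Controls 1 and 2 were the lowest controls and lay inside the nlsYAP5SA range. The same pair was lowest among the controls in Nefl, Nefm and Nefh, but not in Ina.

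Once group means were subtracted, Pearson's r over the 13 hemispheres between the myelin mean and Nefl, Nefm and Nefh was 0.95, 0.84 and 0.89 (Spearman's rho 0.90, 0.90 and 0.80), and with Ina -0.27 (rho -0.38). Without that subtraction r was 0.83, 0.84 and 0.87 for the 3 subunits and 0.51 for Ina (rho 0.48). Among themselves the 3 subunits gave r of 0.98 over the 13 hemispheres and 0.85 to 0.89 once group means were subtracted. With Ina each gave between 0.79 and 0.86 over the 13 hemispheres and between -0.16 and 0.14 once group means were subtracted. These values describe 13 libraries of 3 groups, whose scaling the genes share. Mag and Nefm did not order all mice alike: nlsYAP5SA 2, with 98.8 CPM of Mag, had 201 CPM of Nefm, and control 2, with only 73.4 CPM of Mag, had 252. A fit with the mean log2 level of the 11 myelin genes as a covariate was chosen after seeing these values. In that fit Nefl, Nefm and Nefh remained called, at -0.36, -0.54 and -0.50 (adjusted p = 0.000382, 0.000445 and 0.00084, edgeR). Ina was at -0.23 (adjusted p = 0.0226, edgeR). The fold changes of the myelin genes were themselves negative, so the fit cannot separate myelin from genotype. The part of myelin in the fall of the neurofilament genes was not tested.

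**Figure D5:**
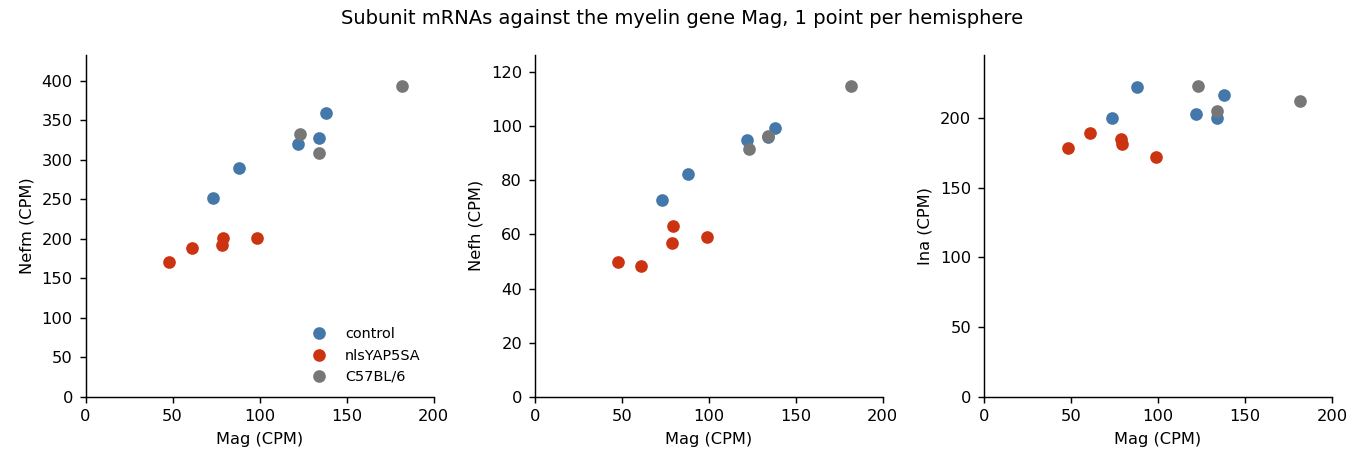
CPM of Nefm, Nefh and Ina (vertical axes) against CPM of Mag (horizontal axis), 1 point per hemisphere, all axes starting at 0. Nefm and Nefh tend to be higher where Mag is higher, with the nlsYAP5SA points lowest in all 3 panels, and Ina follows Mag less closely.

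Among the genes whose log2 CPM most resembled the mean of Nefl, Nefm and Nefh over the 13 hemispheres were Adam11 (r = 0.975), Fibcd1 (0.973), Trp53inp2 (0.967) and Inka2 (0.965). Each of these 4 was called lower in nlsYAP5SA, with log2 fold changes from -0.78 for Fibcd1 to -0.30 for Trp53inp2. After group means were subtracted, the 5 closest genes were Mag (0.948), Trf (0.946), Nat8l (0.946), Zbtb7a (0.942) and Nr4a1 (0.937). Mag and Trf (transferrin, made by oligodendrocytes) stand beside Nat8l, which makes N-acetylaspartate in neurons.

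Ina had a different set of nearest genes. Over the 13 hemispheres they were Cdk5r2 (r = 0.966), Rusc1 (0.960), Fam43b (0.959), Scrt2 (0.957) and Cops7a (0.954), and after subtraction of group means Sh3gl1 (0.918), Bop1 (0.917), Rusc1 (0.915), Elavl3 (0.913) and Fbxw8 (0.907). Elavl3 is a neuronal RNA-binding protein of the pan-neuronal list. For Prph the closest gene over the 13 hemispheres was Slc14a2 at 0.846, and after subtraction 4930520O04Rik at 0.894. All these correlations are descriptions over the same 13 libraries.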

How the data were processed

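Right hemispheres of 5 control, 5 nlsYAP5SA and 3 C57BL/6 mice were analysed, grouped by the genotypes in the labels. The values are estimated counts per gene that the authors deposited: reads were trimmed with CutAdapt 1.5, aligned with STAR to GRCm38 and assigned to Ensembl release 86 transcripts by RSEM 1.3.0. Between 12.4% and 13.3% of the values in a library are not whole numbers.

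Counts were rounded and tested with edgeR 4.0.16 (R 4.3.3; quasi-likelihood test, TMM scaling, filterByExpr with a minimum count of 10 and a minimum total of 15), on the 2 groups of each comparison alone. A gene was called at an adjusted p of 0.05 or less over all genes tested. SE is the fold change divided by the root of the F statistic, and 95% intervals are normal ones. Levels are TMM-scaled CPM over all 13 libraries. Levels per kilobase use the longest coding transcript of GENCODE M21. Levels relative to pan-neuronal genes use a pseudocount of 0.5 CPM. Ratios and relative levels were compared by 2-sided exact permutation tests, on Nefl, Nefm, Nefh and Ina for the 6 ratios. These tests treat the mice as exchangeable, although the paper describes the control and nlsYAP5SA mice as littermates from 2 matings. Mating was not modelled in any test here. DESeq2 1.42.0 was an alternative, beside other filters, scalings, offsets, covariates and left-out libraries. The scripts were tested on simulated counts.

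The 5 genes and the 24 other lists (217 listed genes in 25 lists, each matched by symbol) were chosen with earlier results of these data known. Beyond the 5 genes and Yap1, the genes eligible to be named were up to 4 with the smallest p in each list, the most abundant of each list, and the 5 most alike to each pattern. Krt8, Krt18, Des, Nes, Cldn11 and the Hox genes were named in addition, after their values were seen. Sex and litter of single mice are not given in the labels, and p-values measure the spread between these mice. Some genes that met the naming rule are not reported here.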

Additional observations from a re-analysis of the deposited data

Results flagged for a closer look

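Of 32 sets of 4 or more values examined for a sample far from the rest, 1 stood out, where chance gives about 1 in 20. The log2 level of Prph relative to the pan-neuronal genes was -7.5 in nlsYAP5SA replicate 3, while the other 4 nlsYAP5SA hemispheres lay between -6.97 and -6.91. Its Prph level was 2.687 CPM, close to the 2.71 CPM of control replicate 3.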

How the results depend on the processing

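Nefl, Nefm and Nefh kept their call against control in 21 of 21 alternatives. The Ina call against control (-0.21) was lost with library size alone as scaling (-0.21, adjusted p = 0.078), under the replicate block (-0.20, adjusted p = 0.0654), with Y-linked genes as a covariate (-0.20, adjusted p = 0.204) and, at adjusted p = 0.0677, 0.0643 and 0.0571 in edgeR, without control replicate 4, nlsYAP5SA replicate 2 or nlsYAP5SA replicate 5. Leaving out 1 library gave Ina values from -0.22 to -0.18. The replicate numbers did not pair the mice, since the correlations of same-numbered deviations ran from -0.315 to 0.312 between nlsYAP5SA and control. Against C57BL/6 the replicate block took away the calls of Nefl (-0.52, adjusted p = 0.115, edgeR), Nefm (-0.84, adjusted p = 0.0648), Nefh (-0.90, adjusted p = 0.0567) and Ina (-0.25, adjusted p = 0.404) and 47 genes were called in place of 1061. The Ina call against C57BL/6 was also lost with library size alone (-0.22), with no filter (-0.24) and without any 1 of 7 libraries. In those 7 fits Ina ran from -0.27 to -0.22, with adjusted p from 0.0686 to 0.191 in edgeR. The call was kept without C57BL/6 replicate 3 (-0.28, adjusted p = 0.0313, edgeR). The count of genes called against C57BL/6 ran from 401 without C57BL/6 replicate 1 to 1757 without C57BL/6 replicate 3, and was 636, 645, 509 and 581 without nlsYAP5SA replicates 1, 2 and 5 and C57BL/6 replicate 2.

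Against control, 542 genes were called with Y-linked genes as a covariate and 2853 with the myelin covariate, an alternative chosen after seeing the data, in place of 1761. For C57BL/6 against control the 28 called genes became 16 with at least 10 counts in every library, 59 with DESeq2, 44 with all 13 libraries in 1 fit and 15 under the replicate block. Signs turned only for values that had not passed a test: without 1 library, Prph ran from -0.23 to 0.01 for C57BL/6 against control and from -0.21 to 0.03 for nlsYAP5SA against C57BL/6, and the Nefh/Nefm log2 ratio from -0.02 to 0.05. Relative to neuronal genes, Prph was at 0.02 with the list median, at 0.05 with cortical pyramidal genes and between -0.16 and 0.08 without 1 library. Ina relative to neuronal genes missed the threshold with the list median (-0.05), the cortical pyramidal list (-0.01) and the axonal skeleton list (-0.09), and ran from -0.13 to -0.08 without 1 library, passing in 2 of 10 such fits. The cause of these shifts was not tested. Prph had 62 to 134 reads in a library and a coefficient of variation of 25.8% among controls.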
